A study of Mus musculus with 19 samples.

Results

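Transcripts of 10 genes of neutrophils were followed in 19 whole mouse mammary tumours. S100a8 and S100a9 encode the subunits of calprotectin. Camp, Ngp and Ltf encode proteins packed into secondary granules. Mmp8 encodes a granule collagenase and Retnlg a secreted resistin-like protein. Csf3r, Il1r2 and Clec4d encode surface receptors. The 10 genes were taken by symbol from the 26796 genes of the expected-count table, and each symbol matched 1 Ensembl identifier. Tumours of Met1, a transplantable mouse mammary tumour line, grew in mice that received extracellular vesicles, small membrane-bound particles released by cells, from neutrophils. In the first group (10 tumours) the neutrophils had been exposed to 27-hydroxycholesterol (27HC), a cholesterol metabolite, and in the other group (9 tumours) to its solvent, DMSO. Both groups thus received neutrophil vesicles, and none of the 19 tumours was without vesicle treatment. The strain and age of the mice, the source of the neutrophils, and the dose, route and timing of the vesicles are not stated in the labels. Nothing in the labels says that each tumour came from its own mouse, so p-values measure the spread between these samples. Tumours are named by treatment and by the pair of numbers in their titles, whose meaning is not stated.

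Neutrophils are short-lived white blood cells that mature in bone marrow and load their granules in a fixed order. Primary granules are filled with myeloperoxidase and elastase at the promyelocyte stage, secondary granules with lactoferrin, cathelicidin and neutrophilic granule protein at the myelocyte stage, and gelatinase granules later. Transcription of the secondary granule cargo is largely shut down before cells leave the marrow, whereas transcripts of receptors such as Csf3r, Il1r2 and Clec4d persist or rise in mature cells. In mice, Retnlg is a widely used marker of mature blood neutrophils, and calprotectin is among the most abundant proteins of the neutrophil cytosol. Tumour-associated neutrophils of mouse mammary tumours can come from the bone marrow at different stages. On that basis Camp, Ngp and Ltf are called precursor genes below and the other 7 mature genes. The division is rough. S100a8 and S100a9 are made over several stages, Mmp8 is also placed with secondary and tertiary granule proteins, and several of the receptors are also made by macrophages.

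The stretches before the transcription starts of 5 of the genes are printed because these 5 encode calprotectin and the secondary granule cargo and lie in 2 stretches of the genome, on chromosomes 3 and 9. S100a8 lies at chr3:90668978-90670035 on the plus strand and S100a9 at chr3:90692632-90695721 on the minus strand. Camp (chr9:109847379-109849617, minus strand), Ngp (chr9:110419747-110423012, plus strand) and Ltf (chr9:111019271-111042767, plus strand) lie in that order along chromosome 9. The sequences are RefSeq's promoter stretches on GRCm38.p6, 5′ to 3′ on the strand of the gene, shortened to the bases before the most upstream start in GENCODE M21. They cover chr3:90668821-90668977 for S100a8, chr3:90695722-90695971 for S100a9, chr9:109849618-109849706 for Camp, chr9:110419558-110419746 for Ngp and chr9:111019042-111019270 for Ltf. Capitals mark matches to TTGCNNAA, a core of sites of the C/EBP factors that drive granule gene transcription, or to GAGGAA, a core of PU.1 sites, on either strand.
S100a8: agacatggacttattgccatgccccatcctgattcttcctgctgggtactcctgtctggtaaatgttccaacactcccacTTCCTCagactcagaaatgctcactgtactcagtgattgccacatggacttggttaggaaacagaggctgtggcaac
S100a9: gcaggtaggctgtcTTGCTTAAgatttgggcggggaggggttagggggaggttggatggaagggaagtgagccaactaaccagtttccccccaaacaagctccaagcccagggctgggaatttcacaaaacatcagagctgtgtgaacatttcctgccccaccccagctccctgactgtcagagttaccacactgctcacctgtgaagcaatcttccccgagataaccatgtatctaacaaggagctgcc
Camp: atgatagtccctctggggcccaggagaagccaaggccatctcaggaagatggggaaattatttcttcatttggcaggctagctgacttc
Ngp: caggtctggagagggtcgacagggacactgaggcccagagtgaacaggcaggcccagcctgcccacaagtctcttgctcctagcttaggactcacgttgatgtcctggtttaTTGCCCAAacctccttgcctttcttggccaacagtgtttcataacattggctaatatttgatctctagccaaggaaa
Ltf: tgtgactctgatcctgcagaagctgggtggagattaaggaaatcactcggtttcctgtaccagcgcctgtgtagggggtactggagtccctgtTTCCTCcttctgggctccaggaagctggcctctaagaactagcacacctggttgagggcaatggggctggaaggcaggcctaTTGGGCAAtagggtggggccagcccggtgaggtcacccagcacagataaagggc

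Promoters were found in RefSeq for 10 of the 10 genes, and the 250 bases before the RefSeq start were searched on both strands. TTGCNNAA was present for 5 of the 10 genes (S100a9, Ngp, Ltf, Mmp8 and Retnlg) and in 9.56% of the 32851 mouse promoters of the same length. GAGGAA was present for 5 of the 10 genes (S100a8, Ltf, Mmp8, Csf3r and Clec4d) and in 23.3% of all promoters. The TATA box letters TATAAA were present for S100a8 only among the 10, from 30 to 25 bases before its RefSeq start, and in 12.4% of all promoters. No match overlapped a match of another motif. The TATAAA and a second GAGGAA match of S100a8 and a second TTGCNNAA match of Ngp lie outside the stretches printed. Camp and Il1r2 held none of the 3 motifs in this window. A match describes letters, not binding.

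The libraries held 28139419 to 41179056 expected counts. The mean GC content of the counted transcripts was 49.0% to 49.3% in 5 libraries (27HC 1_3, 27HC 1_5, 27HC 2_3, DMSO 1_5 and DMSO 2_3) and at least 50.6% in the other 14, and values that turn on them are given both ways. Of the tumour epithelium markers, Krt18 was at 36.0 to 132 CPM (expected counts scaled to a common, TMM-normalised library size) in 27HC tumours and at 38.8 to 121 CPM in DMSO tumours, and Epcam at 0.548 to 7.68 CPM in 27HC tumours and at 0.260 to 13.2 CPM in DMSO tumours. Both groups held these markers at levels that overlapped. Ly6g, the defining surface marker of mouse neutrophils, was at 0 to 0.730 CPM in 27HC tumours and at 0 to 0.297 CPM in DMSO tumours, with 0 counts in 4 of the 19. Cxcr2, the receptor by which mature neutrophils follow chemokines, was at 2.87 to 11.4 CPM in 27HC tumours and at 3.40 to 8.83 CPM in DMSO tumours. The macrophage marker C1qa was at 377 to 713 CPM in 27HC tumours and at 422 to 790 CPM in DMSO tumours. These are bulk tumours, in which fewer cells of a type and less RNA per cell cannot be told apart.

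Per kilobase of merged exons, the calprotectin genes stood highest and Mmp8 lowest. The medians over the 19 tumours were 20.7 CPM per kb for S100a8, 18.1 for S100a9 and 10.9 for Csf3r. Next came Ngp at 3.30, Camp at 3.20, Clec4d at 2.84, Il1r2 at 2.27, Retnlg at 2.24 and Ltf at 1.89 CPM per kb, and Mmp8 had 0.483. S100a8 exceeded S100a9 in 13 of the 19 tumours, S100a9 exceeded Csf3r in 15, and Csf3r exceeded Ngp in 17. The order between Ngp and Camp (12 of 19), Camp and Clec4d (10 of 19) and Il1r2 and Retnlg (8 of 19) was not stable over tumours. The SD of log2 CPM over the 19 tumours was 1.69 for Ngp, 1.22 for Camp and 1.07 for Ltf, against 0.52 for Clec4d, 0.41 for Csf3r and 0.29 for Il1r2. The lowest tumour of all 3 precursor genes was 27HC 1_3, and the order of the SDs turned on it. Without it Ngp had 1.17, Camp 0.86 and Ltf 0.79, against 0.93 for Mmp8, 0.89 for S100a9 and 0.88 for S100a8. The receptors varied least with and without that tumour.

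**Figure D1:**
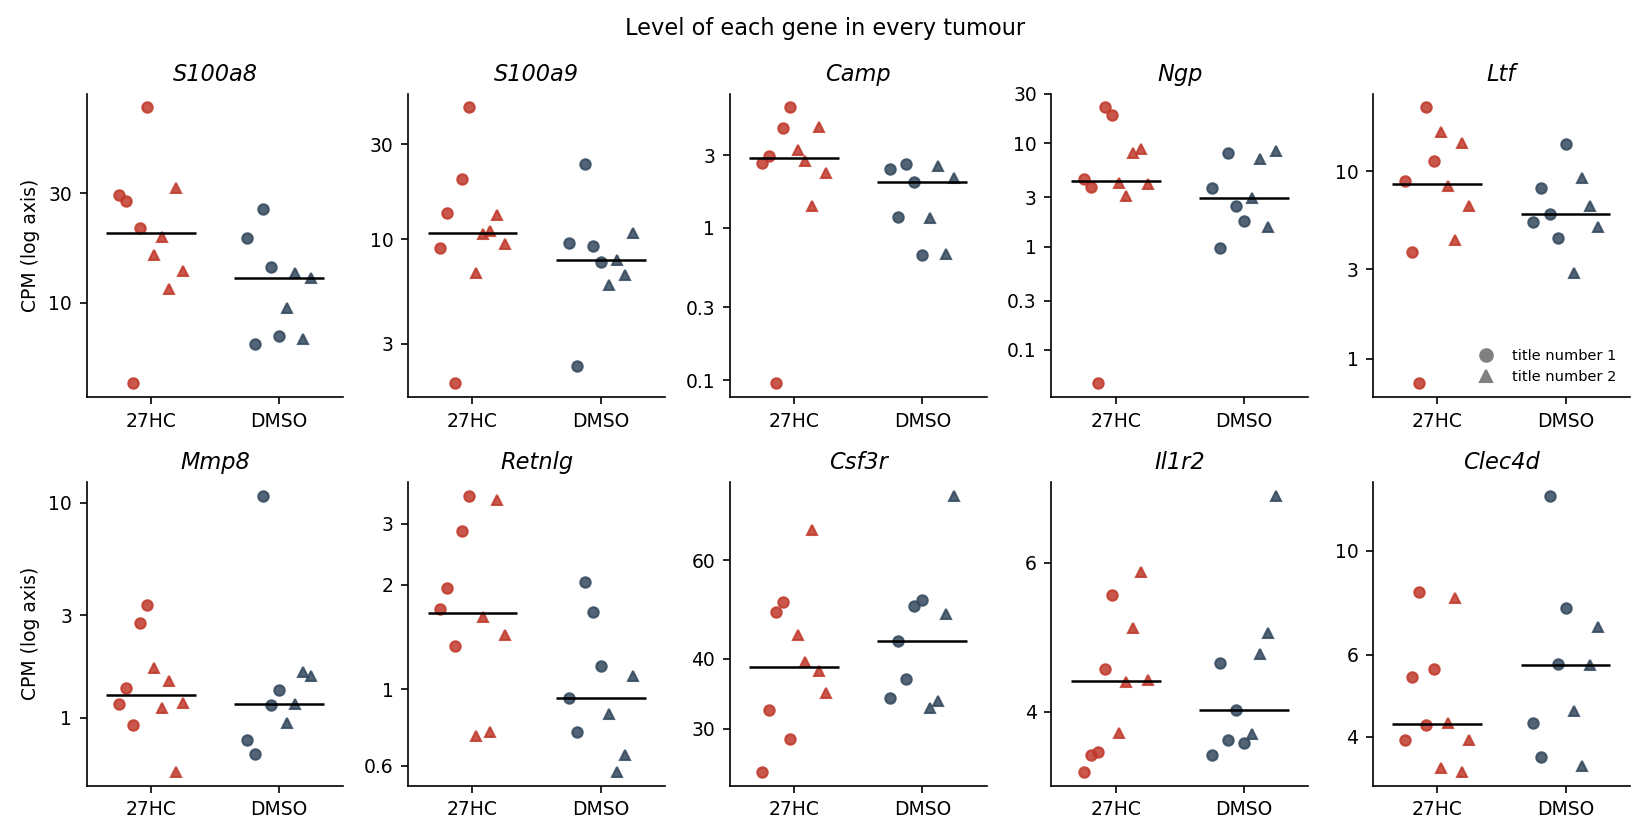
Level of each of the 10 genes in each tumour, in CPM on a logarithmic axis that differs between panels, with 27HC tumours on the left and DMSO tumours on the right. Circles and triangles are tumours whose titles have 1 and 2 as the first number, and black lines are group medians. The groups overlapped for every gene, and the lowest Camp, Ngp and Ltf values all belong to 27HC 1_3.

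The comparison of 27HC with DMSO asks whether neutrophils exposed to the cholesterol metabolite release vesicles that change the tumour. No gene passed an adjusted p of 0.05 in edgeR's quasi-likelihood test: 0 of the 15629 genes tested were called (0%), so 0 of the 10 neutrophil genes were called at a background of 0%. The smallest adjusted p over all genes was 0.838. Before adjustment 354 genes (2.27%) had a p under 0.05, 201 of them higher and 153 lower with 27HC, and 2 of the 10 neutrophil genes (S100a8 and Retnlg) were among the higher ones (1.29% of all genes). limma-voom called 0 genes and DESeq2 called 2 (0.0128%), none of them among the 10. All 10 passed the filter on low counts. Their fold change was above 0 for 6 and below 0 for 4, with a median of 0.55 on the log2 scale, where 53.9% of all genes tested were above 0 with a median of 0.01. The 2 groups were separate, with no overlap, for 0 of the genes tested (0%).

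The calprotectin genes had higher mean levels in tumours of the 27HC group, without passing the adjusted test. Calprotectin binds zinc, manganese and calcium and, once released, signals through Tlr4 and the receptor for advanced glycation end products. S100a8 was at 4.45 CPM in the lowest, 20.2 CPM in the median and 71.3 CPM in the highest 27HC tumour, against 6.63, 12.9 and 25.7 CPM in DMSO tumours. The groups overlapped: 8 of the 10 27HC tumours lay above the DMSO median, 4 lay above every DMSO tumour, and 27HC 1_3 lay below every DMSO tumour. The means were 24.7 ± 18.5 CPM with 27HC and 12.9 ± 6.38 CPM with DMSO (SD, n = 10 and 9), and the log2 fold change was 0.94 (SE 0.38, 95% interval 0.15 to 1.73), with an unadjusted p of 0.0221 and an adjusted p of 1.00 (edgeR). Without 27HC 1_5, the tumour with the highest S100a8, it was 0.59.

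S100a9 was at 1.90 CPM in the lowest, 10.8 CPM in the median and 45.8 CPM in the highest 27HC tumour, against 2.31, 7.88 and 23.8 CPM in DMSO tumours. Again the highest and the lowest of all 19 tumours were 27HC 1_5 and 27HC 1_3, and 27HC 1_5 was the only one of its group above the highest DMSO tumour, DMSO 1_3. The log2 fold change was 0.61 (SE 0.43, adjusted p = 1.00 in edgeR), at 14.1 ± 12.1 CPM with 27HC and 9.30 ± 5.96 CPM with DMSO (SD, n = 10 and 9). It was 0.20 without 27HC 1_5, 0.93 without DMSO 1_3 and 0.30 with the 5 low-GC libraries left out. The ratio of S100a9 to S100a8 in CPM, taken within a tumour, ranged over 0.305 to 0.952 in 27HC tumours and over 0.349 to 1.08 in DMSO tumours.

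Of the receptors and binding partners of calprotectin, 3 of 6 tested had a higher and 3 a lower fold change with 27HC, and 0 were called. For these and the other listed genes, ± gives the SD over the 10 27HC and the 9 DMSO tumours. Tlr4, the endotoxin receptor that calprotectin also engages, had -0.12 (log2 fold change, SE 0.40), and Ager, the receptor for advanced glycation end products, 0.14 (SE 0.25). Ncam1, a cell adhesion molecule, had the smallest p of this list (log2 fold change 0.23, SE 0.15, unadjusted p = 0.128 in edgeR). Of 11 other S100 genes tested, 4 were higher and 7 lower, with a median log2 fold change of -0.06. S100a7a, the mouse relative of psoriasin, had the smallest p among them, at 1.77 ± 2.18 CPM with 27HC and 0.858 ± 0.782 CPM with DMSO (log2 fold change 1.04, SE 0.61, unadjusted p = 0.102 in edgeR). The summed level of the skeletal muscle markers was highest in 27HC 1_5, the tumour with the highest S100a8 and S100a9, at 2.44 to 2819 CPM in 27HC tumours and 2.95 to 1148 CPM in DMSO tumours, and 6 of 6 of these markers had a fold change above 0. Over the 19 tumours that sum had r = 0.03 and rho = 0.04 with S100a8 (adjusted permutation p = 0.955 and 0.954) and r = -0.12 and rho = 0.07 with S100a9 (adjusted permutation p = 0.799 and 0.931). Within the first title numbers 1 and 2 the r was -0.22 and 0.49 with S100a8, and -0.32 and 0.52 with S100a9.

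Camp, Ngp and Ltf, the secondary granule cargo, had higher means and larger SDs in tumours of the 27HC group, and none was called. Camp encodes cathelicidin, an antimicrobial peptide. It was at 0.0951 CPM in the lowest, 2.86 CPM in the median and 6.19 CPM in the highest 27HC tumour, against 0.666, 2.01 and 2.63 CPM in DMSO tumours. Of the 10 27HC tumours, 7 lay above every DMSO tumour and 1, 27HC 1_3, below every one. On the log2 scale the fold change was 0.85 (SE 0.44, 95% interval -0.07 to 1.76, adjusted p = 1.00 in edgeR), at 3.07 ± 1.73 CPM with 27HC and 1.71 ± 0.800 CPM with DMSO (SD, n = 10 and 9).

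Ngp encodes neutrophilic granule protein, a cystatin-like protein. It was at 0.0475 CPM in the lowest, 4.36 CPM in the median and 22.3 CPM in the highest 27HC tumour, against 0.979, 2.95 and 8.42 CPM in DMSO tumours. The highest values, 22.3 CPM in 27HC 1_4 and 18.97 CPM in 27HC 1_5, stood above all others, and 27HC 1_3 stood below all others. The log2 fold change was 0.93 (SE 0.60, adjusted p = 1.00 in edgeR), at 7.79 ± 7.25 CPM with 27HC and 4.11 ± 2.93 CPM with DMSO (SD, n = 10 and 9). Without 27HC 1_4 it was 0.59. Among tumours with the first title number 1 it was 1.67 (9.93 CPM with 27HC and 3.38 CPM with DMSO), and among those with 2 it was 0.15 (5.65 CPM with 27HC and 5.01 CPM with DMSO). The difference between the numbers was -1.39 (SE 1.204, unadjusted p = 0.264, adjusted p = 0.911, edgeR interaction term).

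Ltf encodes lactoferrin, an iron-binding protein that glandular epithelium also makes. It was at 0.737 CPM in the lowest, 8.58 CPM in the median and 22.0 CPM in the highest 27HC tumour, against 2.87, 5.93 and 14.02 CPM in DMSO tumours. The groups overlapped, with 3 of the 10 27HC tumours above and 1 below every DMSO tumour. On the log2 scale the fold change was 0.49 (SE 0.41, adjusted p = 1.00 in edgeR), at 9.62 ± 6.44 CPM with 27HC and 6.85 ± 3.30 CPM with DMSO (SD, n = 10 and 9). It was 0.27 without 27HC 1_4, 0.68 without DMSO 1_5 and 0.97 with the 5 low-GC libraries left out. The summed level of 5 salivary gland markers was 6245 CPM in DMSO 1_5, the DMSO tumour with the highest Ltf, and 938 CPM in 27HC 2_2. In the other tumours it was 0.120 to 12.7 CPM, and its part in the Ltf values was not tested. The summed level of 7 milk genes was 0.626 to 5.33 CPM in 27HC tumours and 1.92 to 14.3 CPM in DMSO tumours, with the highest also in DMSO 1_5. DMSO 2_3 had the next highest sum, at 12.5 CPM, and both libraries were of low GC content. Of the 2 milk genes tested, Csn3, a casein, had the smaller p (log2 fold change -1.32, SE 0.47, unadjusted p = 0.0115, adjusted p = 1.00 in edgeR). It was at 1.31 ± 0.601 CPM with 27HC and 3.26 ± 3.64 CPM with DMSO. Its medians were 1.31 and 1.41 CPM, and the highest DMSO tumour had 10.6 CPM. Ltf had rho = 0.52 (adjusted permutation p = 0.125) and r = 0.43 (adjusted permutation p = 0.254) with the milk genes, with an r of 0.54 and 0.20 within the first title numbers 1 and 2 and of 0.52 without the 2 tumours farthest from the median sum. The part of these genes in the Ltf values was not tested.

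Tumour 27HC 1_3 stood apart in all 3 cargo genes. It held 3.85 expected counts of Camp, 1.94 of Ngp and 31.0 of Ltf. The mature genes were mixed there. S100a8 (4.45 CPM) and S100a9 (1.90 CPM) were at their lowest of all 19 tumours, Il1r2 and Mmp8 each ranked 16th and Retnlg 10th. Csf3r had 48.4 CPM and ranked 6th, and Clec4d had 8.18 CPM, the highest Clec4d value of its group. Tumour 27HC 1_3 also had the highest summed macrophage and monocyte markers (3702 CPM) and the lowest summed primary granule markers (2.90 CPM). Its library was among the 5 of low GC content. The log2 fold changes without it were 1.00 for Camp, 1.12 for Ngp and 0.60 for Ltf, and none was called in that fit.

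Transcripts of primary granules, made at an earlier stage, had fold changes of the same sign. Of the 5 tested genes 5 were higher with 27HC and 0 were called, with a median log2 fold change of 0.40, against 0.01 over all genes. Mpo, myeloperoxidase, was at 5.45 ± 5.30 CPM with 27HC and 2.84 ± 1.80 CPM with DMSO (log2 fold change 0.94, SE 0.52, unadjusted p = 0.0828 in edgeR). Elane, neutrophil elastase, had 0.65 (SE 0.52), Prtn3, proteinase 3, had 0.40 (SE 0.32), and Ctsg, cathepsin G, had 0.25 (SE 0.47). Of the other secondary and tertiary granule genes, 7 of 11 tested were higher and 4 lower, with a median of 0.05 and 0 called. The smallest p-values in that list ran in both directions. Adam8, a membrane protease, was at 45.4 ± 9.72 CPM with 27HC and 66.5 ± 38.8 CPM with DMSO (log2 fold change -0.55, SE 0.23, unadjusted p = 0.0241 in edgeR). Arg1, arginase, which macrophages of tumours also make, had -1.31 (SE 0.57, unadjusted p = 0.0320 in edgeR), and Ifitm6, an interferon-induced transmembrane protein, had 0.59 (SE 0.27, unadjusted p = 0.0409 in edgeR). Medians with 27HC and DMSO lay closer, at 42.2 and 49.2 CPM for Adam8, 6.81 and 6.98 CPM for Arg1, and 1.48 and 1.07 CPM for Ifitm6. The highest DMSO tumour had 165 CPM of Adam8, and the highest for Arg1 had 103 CPM.

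Transcription factors of neutrophil maturation, among them 4 C/EBP genes and Spi1, were tested as well. Of the 9 factors 7 were higher and 2 lower with 27HC, with a median log2 fold change of 0.15, and 0 were called. Cebpd had the smallest p, at 230 ± 129 CPM with 27HC and 130.0 ± 64.2 CPM with DMSO (log2 fold change 0.83, SE 0.40, unadjusted p = 0.0505 in edgeR). Cebpe, which drives secondary granule genes in myelocytes, had 0.19 (SE 0.33) and a mean of 0.432 CPM over all tumours. Spi1, which encodes PU.1 and is also high in macrophages, had -0.17 (SE 0.13).

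Mmp8 and Retnlg are both counted among the mature genes, and their fold changes had opposite signs. Mmp8 encodes neutrophil collagenase, which is also placed with the secondary and tertiary granule proteins. It was at 0.561 CPM in the lowest, 1.27 CPM in the median and 3.33 CPM in the highest 27HC tumour, against 0.678, 1.15 and 10.8 CPM in DMSO tumours. A single tumour stood apart in the DMSO group: DMSO 1_3 had 10.8 CPM, and the other 8 DMSO tumours had at most 1.63 CPM. The log2 fold change was -0.50 (SE 0.48, adjusted p = 1.00 in edgeR), at 1.56 ± 0.853 CPM with 27HC and 2.22 ± 3.21 CPM with DMSO (SD, n = 10 and 9). Without DMSO 1_3 it was 0.43. The same tumour had the highest Clec4d and the highest red cell markers of all 19 (2151 CPM summed) and the highest S100a9 of its group.

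Retnlg was at 0.733 CPM in the lowest, 1.66 CPM in the median and 3.62 CPM in the highest 27HC tumour, against 0.577, 0.945 and 2.04 CPM in DMSO tumours. Of the 27HC tumours 8 of 10 lay above the DMSO median and 3 above every DMSO tumour. Its unadjusted p of 0.0163 was the smallest of the 10 genes and ranked 111th among the 15629 tested, with an adjusted p of 1.00 (edgeR). On the log2 scale the fold change was 0.85 (SE 0.33, 95% interval 0.17 to 1.53), at 1.95 ± 1.04 CPM with 27HC and 1.08 ± 0.487 CPM with DMSO (SD, n = 10 and 9). It was 0.86 (SE 0.39) among tumours with the first title number 1 and 1.00 (SE 0.51) among those with 2.

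The 3 receptors had the smallest fold changes of the 10 genes. Csf3r encodes the receptor for granulocyte colony-stimulating factor, the main growth factor of neutrophils. It was at 25.1 CPM in the lowest, 38.7 CPM in the median and 67.9 CPM in the highest 27HC tumour, against 32.7, 43.0 and 78.1 CPM in DMSO tumours. Of the 27HC tumours 3 lay below every DMSO tumour and 0 above every one. The log2 fold change was -0.14 (SE 0.19, adjusted p = 1.00 in edgeR), and its 95% interval of -0.53 to 0.25 corresponds to a level between 0.691 and 1.19 times that of DMSO tumours. Without DMSO 2_4, the tumour with the highest Csf3r, it was -0.01.

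Il1r2 encodes a decoy receptor that binds interleukin 1 without signalling. It was at 3.40 CPM in the lowest, 4.35 CPM in the median and 5.85 CPM in the highest 27HC tumour, against 3.56, 4.02 and 7.19 CPM in DMSO tumours. On the log2 scale the fold change was -0.02 (SE 0.16, adjusted p = 1.00 in edgeR), with a 95% interval of -0.35 to 0.31. Its sign turned without DMSO 2_4 (0.09), without 27HC 1_1 (0.01) and without 27HC 1_2 (0.01). Of the 10 other genes of interleukin 1 signalling tested 2 were higher and 8 lower with 27HC, and 0 were called. Il1rn, the receptor antagonist, had the smallest p, at 19.9 ± 6.14 CPM with 27HC and 26.7 ± 6.65 CPM with DMSO (log2 fold change -0.42, SE 0.18, unadjusted p = 0.0267 in edgeR). Il1b, which the decoy binds, had -0.36 (SE 0.32).

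Clec4d encodes a C-type lectin that myeloid cells use to sense fungal and mycobacterial glycolipids. It was at 3.36 CPM in the lowest, 4.26 CPM in the median and 8.18 CPM in the highest 27HC tumour, against 3.46, 5.71 and 13.1 CPM in DMSO tumours. Only 2 of the 10 27HC tumours lay above the DMSO median, and both (27HC 1_3 and 27HC 2_3) were libraries of low GC content. The log2 fold change was -0.28 (SE 0.25, adjusted p = 1.00 in edgeR). It was -0.06 without DMSO 1_3 and -0.52 with the 5 low-GC libraries left out. Across the 19 tumours Clec4d was lower in libraries of higher GC content (rho = -0.84, adjusted permutation p = 0.0004 over 20 relations; r = -0.62, adjusted permutation p = 0.1004), and r was -0.50 without the 2 tumours farthest from the median GC content, and -0.50 and -0.82 within the first title numbers 1 and 2. The Clec4d transcript had the lowest GC content of the 10 genes, at 40.4%. Next came Mmp8 (43.4%) and S100a8 (44.2%), whose rho with library GC content was -0.22 and 0.30, neither of them called. Whether transcript GC content has a part in the Clec4d values was not tested.

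**Figure D2:**
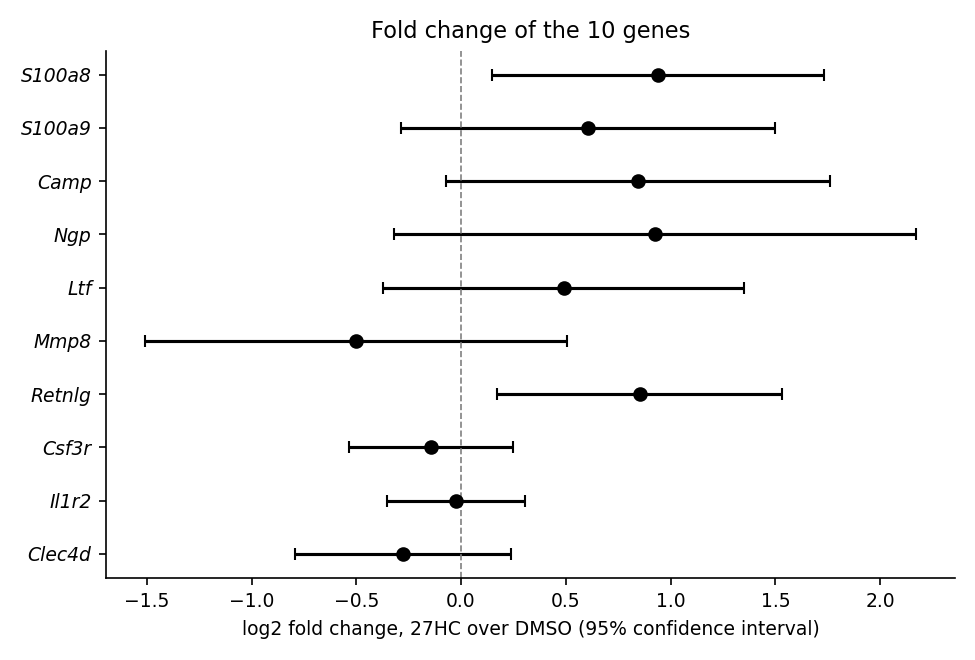
Log2 fold change of each gene in 27HC over DMSO tumours (points) with its 95% confidence interval (bars), from edgeR over 19 tumours. Intervals of S100a8 and Retnlg lie above 0 before adjustment, the interval of Ngp is the widest, and no gene was called after adjustment over 15629 genes.

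Other genes of mature neutrophils did not share one sign. Of 17 tested, 5 were higher and 12 lower with 27HC, with a median log2 fold change of -0.05 and 0 called. Acod1, which makes itaconate and is also made by macrophages, had -0.54 (SE 0.31, unadjusted p = 0.0954 in edgeR), and Wfdc21, a secreted antiprotease-like protein, had 0.49 (SE 0.30). Of 11 chemokines, growth factors and adhesion genes that bring neutrophils into tissue, 3 were higher and 8 lower, with a median of -0.12 and 0 called. Cxcl2, a Cxcr2 ligand, was at 1.32 ± 0.538 CPM with 27HC and 2.13 ± 1.59 CPM with DMSO (log2 fold change -0.69, SE 0.34, unadjusted p = 0.0580 in edgeR). Its medians were 1.36 CPM with 27HC and 1.33 CPM with DMSO, and the highest DMSO tumour had 5.93 CPM. Csf3, the ligand of Csf3r, had 0.03 (SE 0.38). All 11 macrophage and monocyte markers tested had fold changes below 0, between -0.42 and -0.03, and 0 were called. Their summed level was 1746 to 3702 CPM in 27HC tumours and 1910 to 3442 CPM in DMSO tumours.

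The design also allows the treatment difference to be compared between tumours with 1 and 2 as the first title number, of which 5 and 5 belong to the 27HC group and 5 and 4 to the DMSO group. The interaction was called for 0 of 15629 genes (0%), while 223 genes (1.43%) had a p under 0.05 before adjustment, none of them among the 10 neutrophil genes. Within number 1 the log2 fold changes of S100a8, S100a9 and Camp were 1.16 (SE 0.58), 0.88 (SE 0.70) and 0.96 (SE 0.71). Within number 2 they were 0.78 (SE 0.33), 0.37 (SE 0.26) and 0.79 (SE 0.46). The 3 genes thus had the same sign in both, and the adjusted p of the difference between the numbers was 0.923 for S100a8, 0.917 for S100a9 and 0.981 for Camp (edgeR).

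Mature and precursor genes were then set against each other within each tumour. The difference compares gene levels and is no measure of cell stage. Of the mature genes, S100a8 followed Camp (rho = 0.91) and Csf3r followed macrophage markers (rho = 0.82), as given below. The mean log2 CPM of the 7 mature genes was 2.69 ± 0.43 with 27HC and 2.47 ± 0.49 with DMSO, and that of the 3 precursor genes was 2.08 ± 1.62 with 27HC and 1.68 ± 0.57 with DMSO (SD, n = 10 and 9). Mature minus precursor came to -0.61 in the lowest, 0.35 in the median and 4.12 in the highest 27HC tumour, against -0.27, 0.98 and 1.34 in DMSO tumours. The groups overlapped widely, and the highest value, in 27HC 1_3, was 4.12 where the next of its group had 0.96. That tumour held 1.94 expected counts of Ngp and 3.85 of Camp, so its value is uncertain. The means were 0.61 ± 1.33 with 27HC and 0.80 ± 0.49 with DMSO, a difference of -0.19, for which no test was run because the genes were chosen with results known. It was -0.58 without 27HC 1_3, 0.08 among tumours with the first title number 1 and -0.43 among those with 2.

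**Figure D3:**
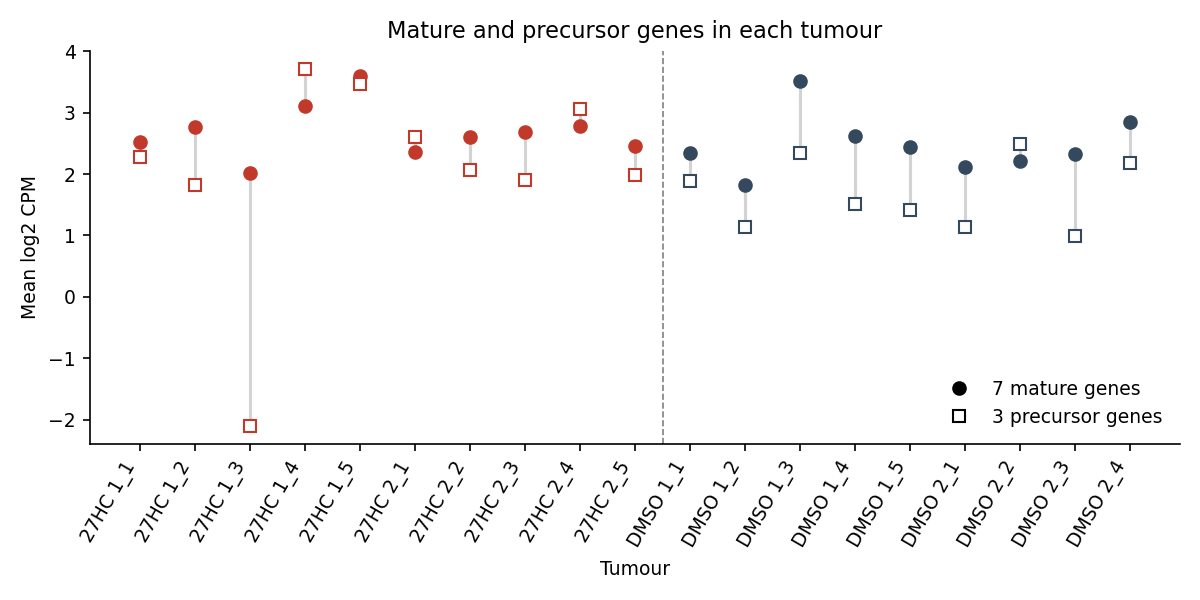
Mean log2 CPM of the 7 mature genes (filled circles) and of the 3 precursor genes (open squares) in each tumour, with 27HC tumours left of the dashed line and DMSO tumours right of it. The precursor mean of 27HC 1_3 is -2.10, far below the others, while its mature mean of 2.01 lies inside the range of the other tumours.

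Across tumours the 10 genes did not vary as a single block. Of 45 pairs, 12 were correlated at an adjusted permutation p under 0.05 by Pearson's r of log2 CPM, all 12 positive. By Spearman's rho 9 were positive and 1 negative. The share called among pairs of all genes tested was not computed. The rho of each gene with all other genes had a 95th percentile of 0.32 (Ngp) to 0.69 (Clec4d). Called pairs could lie below it: S100a8 and Ngp had 0.677 against 0.681 for S100a8, and Camp and Retnlg 0.58 against 0.62 for Camp. The called pairs by rho centred on S100a8, S100a9, Camp, Ngp and Retnlg, whereas Il1r2 and Csf3r entered 0 called pairs by either measure. The median r was 0.69 over the 3 pairs of precursor genes, 0.27 over the 21 pairs of a mature with a precursor gene and 0.15 over the 21 pairs of mature genes. S100a8 and S100a9, counted as mature, were called with Camp and with Ngp by both measures.

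S100a8 and Camp were the closest pair by rho (r = 0.87, permutation p = 1e-05, adjusted p = 0.00015; rho = 0.91, permutation p = 1e-05, adjusted p = 0.00045; n = 19). A p of 1e-05 is the smallest that 100000 permutations can give. The r was 0.88 within 27HC tumours and 0.88 within DMSO tumours, 0.89 and 0.94 within the first title numbers 1 and 2, 0.88 without the 2 tumours farthest from the median S100a8, and 0.81 with the 5 low-GC libraries left out. Among the 15628 other genes tested, S100a8 had the highest rho with Camp, and Camp ranked 3rd for S100a8.

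The 2 calprotectin genes followed each other (r = 0.86, adjusted permutation p = 0.00015; rho = 0.77, adjusted permutation p = 0.0036; n = 19), with an r of 0.71 without the 2 tumours farthest from the median S100a8. The r was 0.89 within 27HC tumours and 0.81 within DMSO tumours, and 0.90 and 0.69 within the first title numbers 1 and 2. Their neighbours among all genes differed. S100a9 ranked 237th among the genes most like S100a8, whose rho with all other genes had a 95th percentile of 0.68, against 0.42 for S100a9. A high rho with S100a8 or with Camp (95th percentile 0.62) was therefore common among the genes tested, and a high rho with S100a9 or Ngp (0.32) was not.

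S100a9 and Ngp were correlated with r = 0.86 (adjusted permutation p = 0.00015) and rho = 0.79 (adjusted permutation p = 0.0025). The r was 0.91 within 27HC tumours, 0.77 within DMSO tumours, 0.91 and 0.67 within the first title numbers 1 and 2, and 0.78 without the 2 tumours farthest from the median S100a9. Camp and Ngp, the closest pair by r, had r = 0.89 (adjusted permutation p = 0.000225) and rho = 0.74 (adjusted permutation p = 0.0039), and r was 0.74 without the 2 farthest tumours and 0.95 and 0.61 within the numbers 1 and 2. Retnlg was correlated with S100a8 (r = 0.70, adjusted permutation p = 0.0045; rho = 0.75, adjusted permutation p = 0.0036) and with S100a9 (r = 0.63, adjusted permutation p = 0.0155; rho = 0.71, adjusted permutation p = 0.0071). Within the numbers 1 and 2 the r was 0.74 and 0.81 with S100a8, and 0.81 and 0.72 with S100a9. Without the 2 tumours farthest from the median of the calprotectin gene it was 0.73 with S100a8 and 0.68 with S100a9. Without the 2 farthest from the median Retnlg it was 0.54 with S100a8 and 0.51 with S100a9. The r with S100a9 was 0.53 without 27HC 1_5, where it was no longer called (adjusted permutation p = 0.0904). Retnlg and Ngp, a mature and a precursor gene, were not called (r = 0.38, adjusted permutation p = 0.216; rho = 0.45, adjusted permutation p = 0.148). Camp and Retnlg lay at the threshold by rho (0.58, adjusted permutation p = 0.04999) and were not called by r (0.47, adjusted permutation p = 0.121). That r was 0.76 without the 2 tumours farthest from the median Camp, and 0.29 without the 2 farthest from the median Retnlg. The r of S100a8 and Ngp was 0.75 in all tumours. It was 0.55 with the 5 low-GC libraries left out, where it was no longer called.

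How closely Ltf followed the other precursor genes turned on the tumours included. Its r with Camp was 0.69 (adjusted permutation p = 0.0174) and with Ngp 0.67 (adjusted permutation p = 0.0252), while rho was 0.56 (adjusted permutation p = 0.0589) and 0.41 (adjusted permutation p = 0.190). Without 27HC 1_3 alone the r values were 0.37 and 0.32. With the 5 low-GC libraries left out, 27HC 1_3 among them, they were 0.67 with Camp and 0.47 with Ngp. Without the 2 tumours farthest from the median Ngp the r of Ngp and Ltf was 0.11. Without 27HC 1_4 the r of Ngp and Ltf was 0.62 and was not called (adjusted permutation p = 0.0673). Within the first title numbers 1 and 2 the r with Camp was 0.68 and 0.71, and that with Ngp 0.78 and 0.16. The r of Camp and Ltf was 0.90 within 27HC tumours and -0.30 within DMSO tumours, and that of Ngp and Ltf was 0.86 within 27HC tumours and -0.22 within DMSO tumours. The relation of Ltf to the other cargo genes thus did not hold within the DMSO group. Ltf was negatively related to Clec4d by rho (-0.58, adjusted permutation p = 0.04999) and not by r (-0.44, adjusted permutation p = 0.148; -0.34 and -0.68 within the numbers 1 and 2).

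Mmp8 was related to S100a9 (r = 0.62, adjusted permutation p = 0.0266) and to Clec4d (r = 0.61, adjusted permutation p = 0.0282) by r but not by rho (0.47 and 0.34, adjusted permutation p = 0.129 and 0.311). The r of Mmp8 and Clec4d was 0.28 without DMSO 1_3, 0.59 without DMSO 1_2 and 0.57 without 27HC 2_4, and it was called in none of these. It was 0.63 and 0.51 within the first title numbers 1 and 2. The r of Mmp8 and S100a9 was 0.58 without DMSO 1_2, 0.596 without 27HC 1_4 and 0.56 without 27HC 1_5, again not called. Within the first title number 2 the r of Mmp8 and S100a9 was -0.39, against 0.73 within number 1, so this relation did not hold within both. For Csf3r the strongest relation with another of the 10 genes was a negative one with S100a8 (r = -0.52, adjusted permutation p = 0.0829; rho = -0.53, adjusted permutation p = 0.0833), which was not called over all 19 tumours. It was -0.57 both without DMSO 2_1 and without DMSO 2_4, and past the threshold there (adjusted permutation p = 0.0469 and 0.0434). It was -0.44 without 27HC 1_5 and -0.32 with the 5 low-GC libraries left out (adjusted permutation p = 0.176 and 0.591). Within the numbers 1 and 2 it was -0.73 and -0.21.

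**Figure D4:**
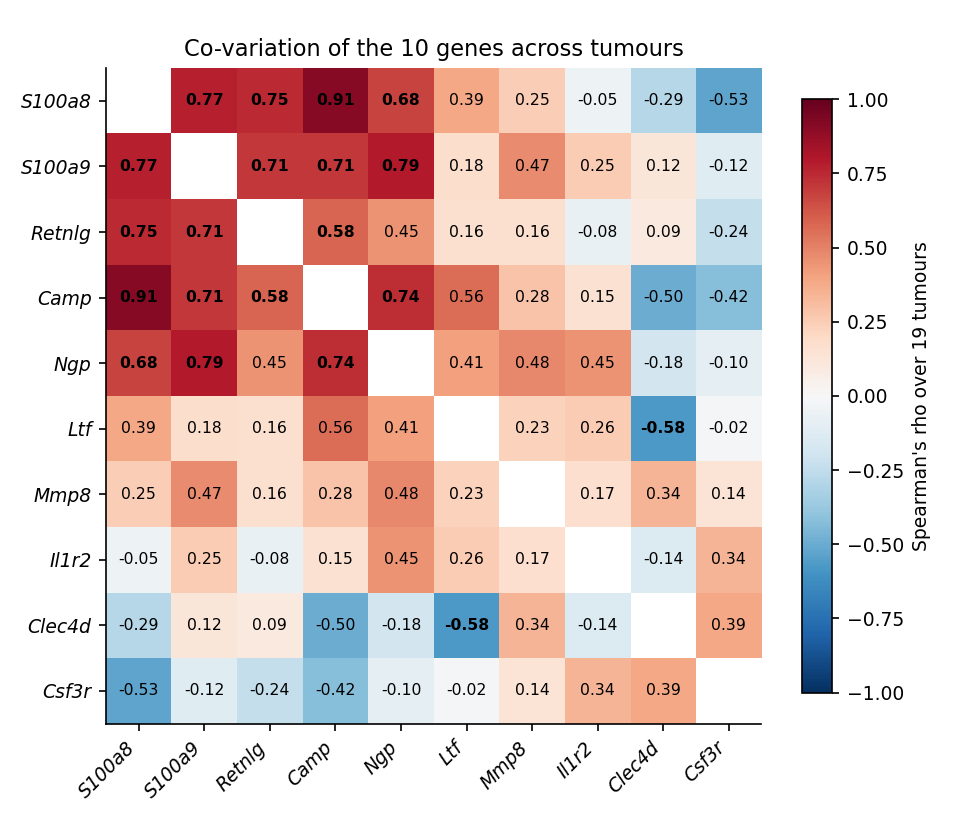
Spearman's rho of log2 CPM for each pair of the 10 genes over 19 tumours, from -1 (blue) to 1 (red), with values past an adjusted permutation p of 0.05 in bold. S100a8, S100a9, Retnlg, Camp and Ngp form the red corner, where 9 of 10 pairs are in bold, and Csf3r, Clec4d and Il1r2 stand outside it. Of these 9, the pair of Camp and Retnlg lies at the threshold (adjusted permutation p = 0.04999) and was not called by r.

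The same genes were set against summed marker lists of the cells that a tumour can hold (90 relations, of which 11 were called by rho and 10 by r). Camp followed the primary granule markers Mpo, Elane, Prtn3, Ctsg, Ms4a3 and Cebpe with r = 0.95 (adjusted permutation p = 0.0009) and rho = 0.94 (adjusted permutation p = 0.00045), and r was 0.90 without the 2 farthest tumours and 0.96 within each first title number. S100a8 had rho = 0.87 with that list, S100a9 0.73 and Ngp 0.70, with adjusted permutation p-values of at most 0.0213. The within-number r was 0.83 and 0.87 for S100a8, 0.80 and 0.38 for S100a9, and 0.92 and 0.46 for Ngp, for numbers 1 and 2. With the 5 low-GC libraries left out, r with this list was 0.83 for Camp and 0.66 for S100a8, against 0.95 and 0.84 in all tumours. For S100a9 and Ngp it was 0.74 each, against 0.75 and 0.83. The sums weigh each gene by its level. Of the mature neutrophil sum, with a median of 189 CPM in 27HC tumours, Msrb1 had a median of 68.2 and Padi4 of 28.5 CPM. Cxcr2 had 5.79 and Ly6g 0.037 CPM, so this sum says little about the most specific markers. The mature neutrophil markers, summed in this way, were called by rho with 5 of the 10 genes, precursor genes among them. S100a9 had rho = 0.76 (adjusted permutation p = 0.0054) and r = 0.70, and S100a8 rho = 0.68 (adjusted permutation p = 0.0242) and r = 0.70. Ngp had rho = 0.66 (adjusted permutation p = 0.0283) and r = 0.68, and Camp rho = 0.62 (adjusted permutation p = 0.0497) and r = 0.75. The r of these 4 genes was called as well, with an adjusted permutation p of at most 0.0121. S100a9 thus had a rho of 0.76 with the mature list and of 0.73 with the primary granule list. Within the first title numbers 1 and 2 it was 0.78 and 0.80 for S100a9, 0.74 and 0.68 for S100a8, 0.82 and 0.71 for Ngp, and 0.85 and 0.69 for Camp. It was 0.54 to 0.61 without the 2 tumours farthest from the median sum. With the 5 low-GC libraries left out it was 0.43 for Ngp, 0.47 for S100a8, 0.48 for Camp and 0.57 for S100a9. Retnlg was called by rho (0.64, adjusted permutation p = 0.0387) and not by r (0.58, adjusted permutation p = 0.0721; 0.52 and 0.62 within the numbers).

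Csf3r followed the 11 macrophage and monocyte markers (r = 0.78, adjusted permutation p = 0.0022; rho = 0.82, adjusted permutation p = 0.0021), with an r of 0.75 without the 2 farthest tumours and of 0.82 and 0.85 within the first title numbers 1 and 2. It had no called relation with the primary granule or mature neutrophil markers. S100a8 was negatively related to the macrophage markers (r = -0.64, adjusted permutation p = 0.0241; rho = -0.64, adjusted permutation p = 0.0360), with r = -0.81 within number 1 and -0.24 within number 2. With the 5 low-GC libraries left out, r with the macrophage markers was 0.76 for Csf3r and -0.43 for S100a8.

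**Figure D5:**
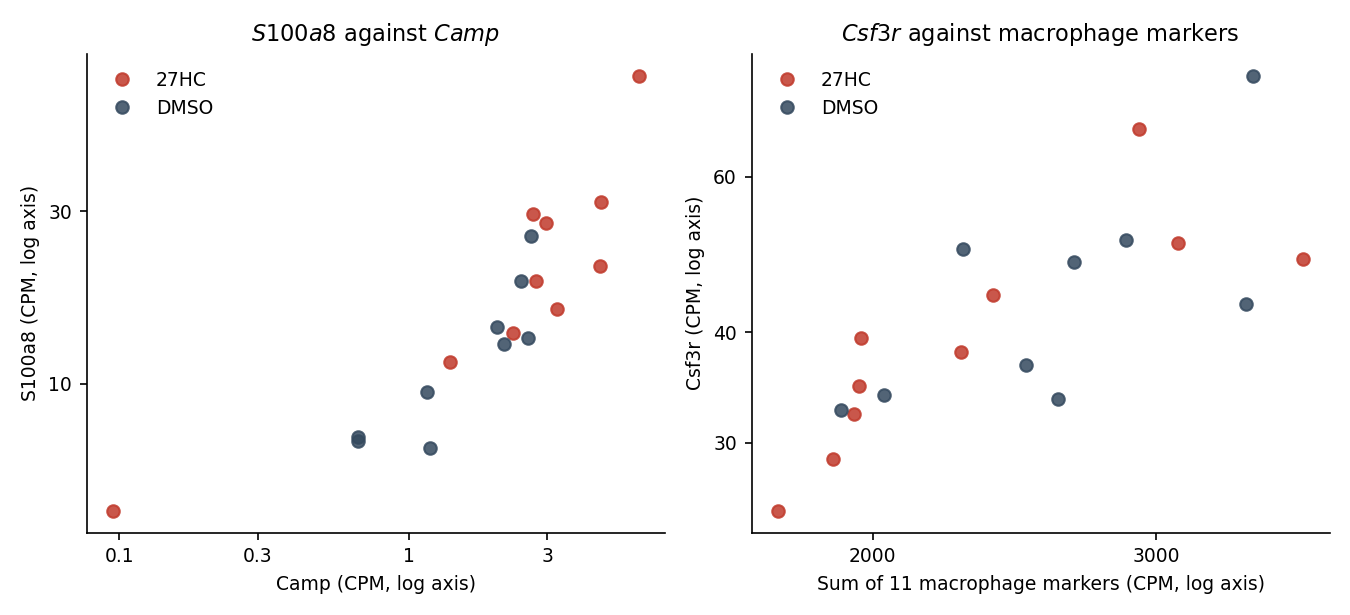
Left, S100a8 against Camp in each tumour, both in CPM on logarithmic axes. Right, Csf3r in CPM against the summed level of 11 macrophage and monocyte markers in CPM, on logarithmic axes, with 27HC tumours in red and DMSO tumours in dark blue. S100a8 rose with Camp over both groups (rho = 0.91), and Csf3r rose with the macrophage markers (rho = 0.82).

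Among the genes tested other than the 10, the 5 of highest rho over the 19 tumours were taken for each gene. Counted among all genes tested, S100a8 came 1st for Camp, Camp 3rd for S100a8, S100a9 3rd for Ngp, Ngp 5th for S100a9 and S100a8 5th for Retnlg. For Ngp the outside genes were Cd177, a neutrophil surface antigen (rho = 0.90), Elane (0.83) and Mpo (0.79), followed by Chga and Orm1. For Camp they were Cd177 (0.85), Elane (0.85), Wfdc21 (0.84), Nenf and Tmem80, and for S100a9 they were Mpo (0.86), Ifitm1 (0.84), Ifitm6 (0.82), Elane (0.80) and Pglyrp1 (0.79). Outside the 10, S100a8 was closest to Wfdc21 (0.92) and Stfa2, a stefin of neutrophils (0.92), and then to Atp5j2, Hacd1 and Ndufc2, of which the first and the last encode parts of mitochondrial respiratory complexes. Retnlg was closest to Stfa2 (0.84), Usmg5, Ifitm6, Zdhhc12 and Ndufb4. Csf3r was closest to Il10ra, the interleukin 10 receptor (0.90), Rasgrp4 (0.89), Vmn1r49, Hps5 and Arhgap45. Clec4d was closest to Phex (0.94), 2310030G06Rik, Cenpi, Slc30a5 and Rbm7, and Il1r2 to Celsr3 (0.76), Nim1k, C3, Syne2 and Trp63. Ltf was closest to Diras2 (0.81), Kdf1, Ankrd24, Pced1b and Adcyap1r1, and Mmp8 to Npb (0.71), Igsf11, Upk1a, Chga and Ypel1.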

How the data were processed

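RNA was sequenced from 19 Met1 tumours. Whole tumours were flash frozen, RNA was taken with Trizol, and strand-specific mRNA libraries were read from both ends on a HiSeq instrument, per the labels' protocols. The deposited values are expected counts per gene, that is, estimated counts that need not be whole. GRCm38, kallisto 0.44.0, limma and edgeR appear in the submitters' processing notes, with no role given for any of them. How transcripts were summed to genes, with which annotation and after which filter, is not stated there.

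Each of the 19 columns was matched to 1 sample by its title, and 0 columns were left unused. Of the identifiers, 26290 had a symbol and 506 had none. Expected counts were rounded and fitted with edgeR 4.0.16 in R 4.3.3 (TMM, filterByExpr, quasi-likelihood test, treatment label alone, all 19 tumours), with Benjamini-Hochberg adjustment over the 15629 genes tested and a threshold of 0.05. The filter left out 11167 genes. Positive log2 fold changes mean higher in 27HC tumours. Levels are CPM by the TMM-normalised library size, and correlations were computed on log2 CPM (prior count 2), with two-sided permutation tests with 100000 resamples. Levels per kb use merged exon lengths of GENCODE M21. Precision is limited by the number of tumours more than by depth, except for genes with few counts. The fit was tested on simulated counts.

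The 10 genes and all gene lists were chosen with earlier results of these data known. The genes named are the 10, up to 4 genes with the smallest unadjusted p per list and, per gene, the 5 genes of highest rho outside the 10. Some genes are named in addition for their role (Tlr4, Ctsg, Csf3, Csn3), after their values were seen. Alternatives were DESeq2 1.42.0, limma-voom (limma 3.58.1), RLE size factors, other filters, the title numbers as block or covariate, each first title number alone, another prior count and leaving out each tumour. A fit without the 5 libraries of low transcript GC content was chosen after seeing the data.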

Additional observations from a re-analysis of the deposited data

Results flagged for a closer look

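Of 42 groups of values tested for a value set far apart from the others of its group, 13 had one. Chance gives about 1 in 20 only for independent groups of normally distributed values. Here the same genes were tested in CPM and again in log2 CPM, so that rate is no benchmark for the 13. The 13 came from 4 tumours.

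Tumour 27HC 1_5 stood above its group in S100a8 (71.3 CPM, others at most 31.8) and in S100a9 (45.8 CPM, others at most 20.1). Tumour 27HC 1_3 stood below its group on the log2 CPM scale in Camp (-2.72, others at least 0.53), Ngp (-3.26, others at least 1.65) and Ltf (-0.33, others at least 1.92), and above it in mature minus precursor (4.12, others at most 0.96). Tumour DMSO 1_3 stood above its group in S100a9 (23.8 CPM, others at most 10.7), Clec4d (13.1 CPM, others at most 7.56) and Mmp8 (10.8 CPM, others at most 1.63), the last also on the log2 scale (3.43, others at most 0.76). Tumour DMSO 2_4 stood above its group in Csf3r (78.1 CPM, others at most 50.9) and in Il1r2 (7.19 CPM, others at most 4.95), the last also on the log2 scale (2.86, others at most 2.32). The labels give these tumours nothing that sets them apart, and what lies behind their values was not tested.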

How the results depend on the processing

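None of the 288 fold changes of the 10 genes computed under the alternatives passed the threshold, and 8 turned sign, all of Mmp8 or Il1r2. The number of the 10 genes called was 0 under each of the 29 alternatives, and the number of all genes called was 0 except under DESeq2, which called 2. The Mmp8 fold change (-0.50 on the log2 scale) was 0.43 with DESeq2 and 0.0054 with limma-voom, and it ran from -0.66 to 0.43 over the fits that left out 1 tumour. Il1r2 (-0.02) was 0.10 among tumours with the first title number 1 and ran from -0.10 to 0.092 when 1 tumour was left out. Leaving out 1 tumour gave 0.59 to 1.14 for S100a8, 0.20 to 0.93 for S100a9, 0.66 to 1.00 for Camp, 0.59 to 1.13 for Ngp, 0.27 to 0.68 for Ltf and 0.69 to 1.02 for Retnlg. limma-voom gave 0.54 for Camp, 0.38 for Ngp and 0.15 for Ltf. The filter at 1 log2 CPM left Mmp8 and Retnlg untested. The count of called pairs by r (12) was 10 to 13 over 23 alternatives, and 10 with the 5 low-GC libraries left out. Mature minus precursor (-0.19) was -0.54 without those libraries. The causes were not tested.

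Tumours with the same title number did not consistently deviate together. The correlation ran from -0.43 to 0.78 and was over 0.1 for 5 of 9 pairs. Only 2 of the 27HC tumours correlated best with their own number. The numbers were therefore not taken to pair the tumours. With the number as replicate block, 0 genes and 0 of the 10 were called, and Mmp8 had 0.089 and Ltf 0.25.

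Depth limits Ngp and Camp in tumour 27HC 1_3, where 1.94 and 3.85 expected counts leave the level uncertain; elsewhere the spread between tumours is the limit.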
